A study of Mus musculus with 24 samples.

Results

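The transcripts of 10 genes of the endothelial-to-hematopoietic transition and of hematopoietic stem cells were followed in liver cells of E12.5 mouse embryos. They are *Runx1*, *Gfi1*, *Gfi1b*, *Lyl1*, *Lmo2* and *Hlf*, which encode transcriptional regulators, and *Ptprc*, *Spn*, *Cd34* and *Procr*, which encode surface proteins. The genes were selected by name, with earlier results of these data known, and each was found once among the 25361 genes of the expression table. The question was whether LSECs that lose a chromatin remodeler take on transcripts of the hemogenic program.

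In the embryo, blood stem cells arise from hemogenic endothelium, a specialized arterial endothelium whose cells switch on RUNX1. RUNX1 in turn acts with GFI1 and GFI1B to silence endothelial genes while the cells round up, detach and begin to display CD43 (*Spn*) and then the pan-leukocyte antigen CD45 (*Ptprc*). The fetal liver is then colonized by these cells and becomes the main blood-forming organ, so that LSECs (liver sinusoidal endothelial cells) lie next to stem cells, erythroid precursors, megakaryocytes and macrophages. CHD4 is the ATPase of the repressive NuRD complex, and BRG1, encoded by *Smarca4*, is an ATPase of SWI/SNF complexes.

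RNA was sequenced from 24 libraries, 12 of LSECs isolated by CD146 and 12 of the remaining liver cells (non-EC cells), with 4 genotypes and 3 replicates in each fraction. Controls were Cre-negative and carried floxed alleles of both remodelers. The mutants all carried VE-cadherin-Cre. *Chd4-ECko* embryos had Chd4 fl/fl together with Brg1 fl/+, *Brg1-ECko* embryos had Brg1 fl/fl together with Chd4 fl/+, and the *Brg1/Chd4-ECdko* double mutants were fl/fl for both genes. Each single mutant therefore also carries 1 floxed allele of the other remodeler. The Cre is driven by the VE-cadherin promoter, which the study describes as also active in some blood cells of the fetal liver. Livers were dissociated with transcription inhibitors and red blood cells were lysed, and mice were of mixed background. The study describes replicates as single embryos, whereas the labels do not say what a replicate is, and all labels give the same batch. If replicates were not separate embryos, the p-values measure only technical spread.

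Expression was given as TPM, in which the reads of a gene are divided by its length and scaled to the same total in every library. The study states a read number for its sequencing, but the depth of each library was unknown. No counting error could therefore be given. The CD146 fraction had the markers of its label, since all 13 endothelial markers were called higher in control LSECs than in control non-EC cells (median log2 fold change 5.31). It also held transcripts of other cells. Mesenchyme and stellate markers summed to 1179 to 2020 TPM in LSEC libraries and 27.7 to 112 TPM in non-EC libraries. All 9 were called higher in control LSECs (median log2 fold change 4.51). Endothelial markers summed to 1138 to 2415 TPM in LSEC libraries. A sum depends on the genes listed, so sums of different lists do not compare cell content. Summed macrophage markers were 873 to 1816 TPM in LSEC libraries and 246 to 648 TPM in non-EC libraries, erythroid markers were 117 to 478 TPM against 1012 to 2941 TPM, and hepatoblast markers were 3396 to 28657 TPM against 17552 to 38169 TPM. Replicate 1 of the *Brg1-ECko* LSECs stood apart with 28657 TPM of hepatoblast markers, and 8231 TPM was the next highest value among LSECs. Mitochondrial transcripts made up 13.9% to 31.5% of TPM in LSECs and 2.33% to 7.69% in non-EC cells.

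The targeted genes were examined first. *Chd4* was at 223, 168 and 252 TPM in *Chd4-ECko* LSECs and at 285, 255 and 246 TPM in control LSECs (log2 fold change -0.30 ± 0.17 SE, adjusted p = 0.962, limma). *Smarca4* was at 157, 111 and 127 TPM in *Brg1-ECko* LSECs and at 161, 144 and 134 TPM in controls (log2 fold change -0.16 ± 0.17 SE, adjusted p = 0.779). In double mutant LSECs the log2 fold changes were -0.07 ± 0.17 SE for *Chd4* (adjusted p = 0.869) and -0.14 ± 0.17 SE for *Smarca4* (adjusted p = 0.704). None of these values checks the labels. TPM of a whole gene also counts any transcripts that lack the floxed exons, and the LSEC libraries also held transcripts of other cells. The part of either in these values was not tested. By qRT-PCR of LSECs isolated by LYVE1, the study reports lower *Chd4* and *Brg1* transcripts in the relevant mutants.

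Promoter sequence is shown for 5 genes: *Runx1*, the regulator that opens the program, *Gfi1b*, which was mostly on the blood side, *Ptprc* and *Cd34*, whose mutant LSEC libraries lay apart from controls, and *Procr*, the gene most on the side of the CD146 fraction. Each is the 200 bases before an annotated start, from RefSeq on GRCm38.p6, 5′ to 3′ on the strand of the gene. Entries were found for 9 of the 10 genes; *Lmo2* had none. Capitals mark core letters of 4 factor families, searched on both strands, with no match overlapping another. For the RUNX family the letters searched were TGTGGT. For the GATA family, whose members drive erythroid and stem cell genes, they were GATAA. The ETS family, which governs many endothelial genes, was searched as GGAAG. For the repressors GFI1 and GFI1B the letters were AAATCA.

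Runx1 start 1, chr16:92826075-92826274, minus strand: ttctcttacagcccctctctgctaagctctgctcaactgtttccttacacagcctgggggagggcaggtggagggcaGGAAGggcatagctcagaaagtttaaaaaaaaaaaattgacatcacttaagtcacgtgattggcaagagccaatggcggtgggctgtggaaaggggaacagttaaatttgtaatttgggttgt

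Runx1 start 2, chr16:92697330-92697529, minus strand: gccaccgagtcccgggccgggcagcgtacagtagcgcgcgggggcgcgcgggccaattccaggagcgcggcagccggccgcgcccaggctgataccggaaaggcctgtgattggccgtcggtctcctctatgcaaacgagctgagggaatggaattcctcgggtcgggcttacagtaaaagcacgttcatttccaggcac

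Gfi1b, chr2:28621983-28622182, minus strand: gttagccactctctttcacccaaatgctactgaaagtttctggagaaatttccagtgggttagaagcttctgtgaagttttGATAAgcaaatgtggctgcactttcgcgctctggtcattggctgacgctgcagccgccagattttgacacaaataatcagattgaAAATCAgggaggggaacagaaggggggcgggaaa

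Ptprc start 1, chr1:138175306-138175505, minus strand: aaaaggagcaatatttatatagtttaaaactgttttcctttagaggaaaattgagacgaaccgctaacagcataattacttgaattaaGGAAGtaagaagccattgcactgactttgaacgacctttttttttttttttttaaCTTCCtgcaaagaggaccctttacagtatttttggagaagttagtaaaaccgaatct

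Ptprc start 2, chr1:138175127-138175326, minus strand: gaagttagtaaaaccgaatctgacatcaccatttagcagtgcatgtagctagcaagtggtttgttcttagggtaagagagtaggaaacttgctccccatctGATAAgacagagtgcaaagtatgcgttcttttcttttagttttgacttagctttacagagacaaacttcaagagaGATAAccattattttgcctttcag

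Cd34, chr1:194938621-194938820, plus strand: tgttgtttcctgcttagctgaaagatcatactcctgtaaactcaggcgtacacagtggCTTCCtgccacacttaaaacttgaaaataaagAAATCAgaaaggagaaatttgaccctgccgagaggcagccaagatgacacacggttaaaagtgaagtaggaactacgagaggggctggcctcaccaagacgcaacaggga

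Procr, chr2:155751017-155751216, plus strand: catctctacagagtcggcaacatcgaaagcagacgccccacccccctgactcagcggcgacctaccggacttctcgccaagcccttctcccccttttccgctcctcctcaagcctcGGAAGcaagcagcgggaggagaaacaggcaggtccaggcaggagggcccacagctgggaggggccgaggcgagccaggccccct

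The *Gfi1b* window held GATAA 119 bases and AAATCA 34 bases before the start. *Ptprc* start 2, whose window partly overlaps that of start 1, held GATAA 99 and 24 bases before it. AAATCA was also found 110 bases before the *Cd34* start, and GGAAG was found in the windows of *Runx1* start 1, *Ptprc* start 1, *Cd34* and *Procr*. No TGTGGT was found in these windows. Of 32851 promoter windows of this length, 56.8% held GGAAG, 18.1% GATAA, 11.2% TGTGGT and 9.8% AAATCA. A match is a description of the letters in a window, and no binding was measured.

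In control embryos, 8 of the 10 genes were lower in LSECs than in non-EC cells and 1 was higher. Of all 13775 genes tested, 13.3% were called lower and 19.4% higher in LSECs at the thresholds of the study (log2 fold change over 1 in size and adjusted p under 0.05). The median log2 fold change was -1.67 over the 10 genes and -0.09 over all genes. Fold changes were computed from log2(TPM + 1), and the added 1 makes those of low genes smaller than the ratio of their TPM.

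The blood side was led by *Spn*, which encodes the sialomucin CD43 of leukocytes and emerging stem cells. It was at 5.59, 6.73 and 4.72 TPM in control LSECs and at 117, 121 and 118 TPM in control non-EC cells (log2 fold change -4.17 ± 0.38 SE, adjusted p = 6.2e-09). *Gfi1b*, a repressor required in erythroid and megakaryocytic cells, was at 3.95, 4.88 and 3.57 TPM in control LSECs against 58.4, 67.4 and 63.1 TPM (log2 fold change -3.64, adjusted p = 6.62e-08). The groups were far apart for both genes.

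*Lmo2* encodes the bridging protein of the TAL1, GATA and LDB1 complex, and *Lyl1* a basic helix-loop-helix factor related to TAL1. Their levels were lower in LSECs by -2.33 and -2.15 (log2 fold change, adjusted p = 2.63e-10 and 6.57e-10). *Lmo2* was nevertheless at 44.2 to 55.3 TPM in control LSECs, the second highest level of the 10 genes there after *Cd34*. *Runx1* (log2 fold change -1.36, adjusted p = 4.72e-04), *Hlf* (-1.37, adjusted p = 0.00119), a PAR bZIP factor marking stem cells, and *Ptprc* (-1.11, adjusted p = 0.00571) were closer between fractions. For *Ptprc* the call was lost in 4 of 17 alternatives, namely without mitochondrial genes (-0.88) and without LSEC control replicate 2 (-0.97) or non-EC control replicate 1 (-0.96) or 3 (-0.85). The control libraries of the fractions overlapped narrowly, at 5.26 to 8.38 TPM in LSECs and 8.21 to 23.0 TPM in non-EC cells.

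*Gfi1* encodes the paralog of GFI1B and was listed at 0 TPM in all 3 control LSEC libraries, while control non-EC cells had 3.01, 2.01 and 4.02 TPM. It passed the test between fractions (adjusted p = 3.54e-06), and no fold is given because one group is listed at 0.

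*Procr*, encoding the endothelial protein C receptor EPCR that also marks stem cells, was the gene called higher in LSECs. Control LSECs had 24.9, 27.4 and 16.1 TPM and control non-EC cells 1.40, 1.00 and 0.90 TPM (log2 fold change 3.48 ± 0.29 SE, adjusted p = 1.13e-09). *Cd34*, a sialomucin of vascular endothelium and of progenitors, was at 68.9, 86.2 and 61.2 TPM in control LSECs and 48.0, 29.5 and 51.0 TPM in non-EC cells. This difference of 0.76 passed the adjusted p (0.0118) but not the fold threshold. It was called with TPM rescaled without mitochondrial genes (1.04), and its adjusted p was 0.0592 without LSEC control replicate 2 and 0.0915 without non-EC control replicate 2. The 12 libraries of each fraction did not overlap for *Procr*, *Spn*, *Gfi1b*, *Lmo2* and *Lyl1*, and did for *Cd34*, *Runx1*, *Hlf*, *Ptprc* and *Gfi1*. No share of all genes without overlap is given, so this describes the genes and does not set them apart. Of all genes, 67.1% differed between the control fractions at an adjusted p under 0.05.

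**Figure D1:**
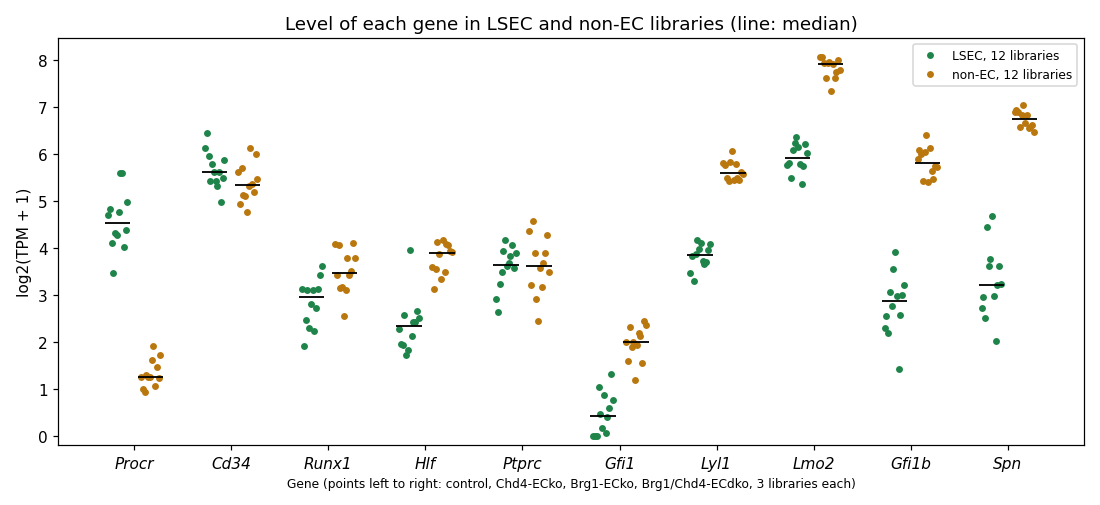
Level of the 10 genes as log2(TPM + 1) in 12 LSEC (green) and 12 non-EC (ochre) libraries, one point per library in genotype order, with the median as a line. *Procr* is higher in LSECs (median 22.3 against 1.39 TPM), and *Spn* has the widest gap in the other direction (8.29 against 106 TPM).

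By level in control LSECs, *Cd34* (72.1 ± 12.8 TPM, SD, n = 3) and *Lmo2* (50.9 ± 5.93) came first, followed by *Procr* (22.8 ± 5.93), *Lyl1* (10.8 ± 2.30), *Ptprc* (6.74 ± 1.56), *Spn* (5.68 ± 1.01), *Runx1* (5.0 ± 2.51), *Gfi1b* (4.14 ± 0.67), *Hlf* (3.17 ± 0.57) and *Gfi1*. TPM are scaled by gene length, so levels can be ordered between genes. From *Ptprc* to *Hlf*, each gene overlapped its neighbor in this order, whereas *Cd34*, *Lmo2*, *Procr*, *Lyl1* and *Ptprc* did not overlap one another.

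In mutant LSECs, none of the 9 genes that entered the test was called against control in any mutant. *Gfi1* did not enter, because fewer than 3 LSEC libraries reached 1 TPM. Of all 13444 genes, 0.521% were called in *Chd4-ECko* LSECs, 0.0149% in those of *Brg1-ECko* and 0.565% in those of the double mutant. These shares depended on single libraries. The 70 genes of *Chd4-ECko* became 147 without its replicate 1 and 28 without its replicate 3, the 2 genes of *Brg1-ECko* became 6 without its replicate 3, and the 76 genes of the double mutant became 24 without its replicate 3 and 117 without *Brg1-ECko* replicate 1. At an unadjusted p under 0.05, 5 of 9 genes passed in *Chd4-ECko* (6.49% of all genes), 3 of 9 in *Brg1-ECko* (9.68%) and 3 of 9 in the double mutant (12.1%). *Ptprc*, higher, and *Cd34*, lower, were among them in all 3 mutants. The 3 comparisons share the same 3 control libraries and are not independent of each other.

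All 3 mutant libraries lay above all 3 controls for 5 of the 9 genes in *Chd4-ECko* (*Gfi1b*, *Ptprc*, *Spn*, *Lyl1*, *Lmo2*), 1 of 9 in *Brg1-ECko* (*Ptprc*) and 5 of 9 in double mutant LSECs (*Runx1*, *Gfi1b*, *Ptprc*, *Spn*, *Hlf*). Among all genes tested, 8.7%, 10.9% and 20.8% lay above in this way. *Cd34* was the single one of the 9 that lay below in each mutant, where 3.65%, 3.71% and 2.29% of all genes did. Median log2 fold changes of the 9 genes were 0.47, 0.42 and 0.48, against 0.01, 0.08 and 0.16 over all genes. The last shift means that differences in *Brg1/Chd4-ECdko* LSECs are read against a background that is itself 0.16 higher.

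**Figure D2:**
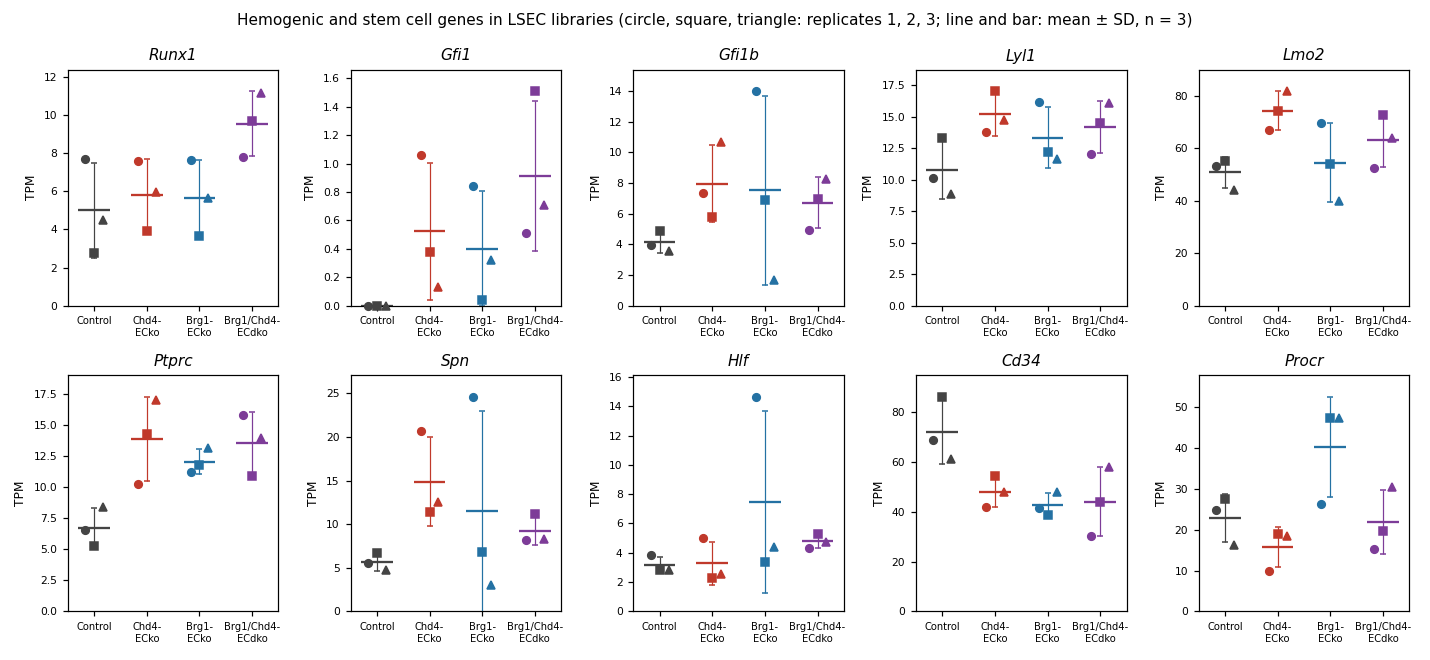
TPM of the 10 genes in the 12 LSEC libraries by genotype, with the mean and SD of 3 libraries (SD bars are cut at 0). *Ptprc* is higher and *Cd34* lower in all 9 mutant libraries than in the 3 controls, whereas *Spn*, *Gfi1b* and *Hlf* in *Brg1-ECko* LSECs are each highest in replicate 1. The share of all genes with all 9 libraries on one side was not counted.

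*Runx1* was at 7.72, 2.77 and 4.51 TPM in control LSECs, 7.60, 3.91 and 5.99 TPM in *Chd4-ECko* and 7.64, 3.67 and 5.64 TPM in *Brg1-ECko* LSECs. These groups overlapped almost completely, and in each of them replicate 1 was highest and replicate 2 lowest. *Brg1/Chd4-ECdko* LSECs had 7.79, 9.71 and 11.2 TPM, all above the controls, the lowest of them by less than 0.1 TPM. The log2 fold change was 0.89 (95% interval 0.23 to 1.54, adjusted p = 0.253) in the double mutant, 0.24 (-0.42 to 0.89, adjusted p = 1.00) in *Chd4-ECko* and 0.19 (-0.47 to 0.85, adjusted p = 0.868) in *Brg1-ECko* LSECs.

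*Gfi1* was listed at 0 TPM in all 3 control LSEC libraries and above 0 in all 9 mutant libraries. The share of all genes with this pattern was not counted, so it describes *Gfi1* and does not set it apart. Values were 1.06, 0.38 and 0.13 TPM in *Chd4-ECko* LSECs, then 0.84, 0.04 and 0.32 TPM in *Brg1-ECko* LSECs. The double mutant had 0.51, 1.51 and 0.71 TPM. Each mutant lay above the controls, with an exact permutation p of 0.1 (two-sided, n = 3), the smallest that 3 against 3 libraries allow. All 9 values were below or within the range of non-EC cells (1.28 to 4.48 TPM), and the reads behind them are unknown.

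*Gfi1b* was at 3.57 to 4.88 TPM in control LSECs and at 7.35, 5.78 and 10.7 TPM in *Chd4-ECko* LSECs (log2 fold change 0.77, interval -0.18 to 1.73, adjusted p = 0.984). In *Brg1/Chd4-ECdko* LSECs it was at 4.94, 6.95 and 8.26 TPM (0.57, adjusted p = 0.570). *Brg1-ECko* libraries ranged from 1.67 to 14 TPM and enclosed the controls.

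*Spn* was at 20.7, 11.3 and 12.5 TPM in *Chd4-ECko* LSECs, all above the control range of 4.72 to 6.73 TPM. Its log2 fold change of 1.21 was the largest among the 9 genes in that comparison, but the spread was wide (interval 0.21 to 2.22, adjusted p = 0.499). The model pools the spread of all 4 genotypes, and *Brg1-ECko* LSECs ranged widely, at 24.6, 6.85 and 3.04 TPM. Without replicate 1 of that group the adjusted p of the *Chd4-ECko* difference was 0.0314, and in a model of the 2 compared groups alone it was 0.0236. *Brg1/Chd4-ECdko* LSECs had 8.22, 11.2 and 8.36 TPM (0.62, adjusted p = 0.561).

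In *Chd4-ECko* LSECs all 10 erythroid markers tested were higher as well (median log2 fold change 0.75) and none passed, with 2 at an unadjusted p under 0.05. Summed erythroid markers were 302 to 478 TPM there, 145 to 347 TPM in controls, 192 to 295 TPM in the double mutant and 117 to 426 TPM in *Brg1-ECko* LSECs. Replicate 1 of the *Brg1-ECko* LSECs, highest in *Spn*, *Gfi1b* and *Hlf*, was also highest among the LSEC libraries in megakaryocyte (630 TPM) and hepatoblast markers. All 8 hepatoblast markers were higher in *Brg1-ECko* LSECs (median 1.15, none called, 8 at an unadjusted p under 0.05). The part of these cells in the values was not tested. Fewer cells of a type and less RNA per cell cannot be told apart in bulk samples.

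*Lmo2* was at 67.2, 74.1 and 81.9 TPM in *Chd4-ECko* LSECs, all above the controls at 53.2, 55.3 and 44.2 TPM (log2 fold change 0.54, interval 0.14 to 0.94, adjusted p = 0.365). It overlapped the controls in *Brg1-ECko* LSECs (69.9, 54.0 and 39.9 TPM) and in *Brg1/Chd4-ECdko* LSECs (52.4, 72.9 and 64.0 TPM). *Lyl1* was at 10.1, 13.3 and 8.84 TPM in control LSECs, below the 13.7, 17 and 14.7 TPM of *Chd4-ECko* LSECs (0.47, adjusted p = 0.494). *Lyl1* in the other mutants was at 11.7 to 16.1 TPM and met the control range.

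*Hlf* was the gene with the least difference in *Chd4-ECko* LSECs (4.99, 2.31 and 2.54 TPM against 3.83, 2.86 and 2.83 TPM, log2 fold change -0.01, interval -0.81 to 0.79). In *Brg1/Chd4-ECdko* LSECs it was at 4.34, 5.30 and 4.71 TPM, just above the controls (0.48, adjusted p = 0.572). All 8 hepatoblast markers were higher there too (median 0.51, none called, 0 at an unadjusted p under 0.05), with sums of 5143 to 8231 TPM against 3396 to 7084 TPM in controls, and their part was not tested. *Brg1-ECko* LSECs had 14.6, 3.37 and 4.40 TPM, a difference of 0.79 (adjusted p = 0.523) that fell to 0.23 without replicate 1.

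*Ptprc* was at 6.58, 5.26 and 8.38 TPM in control LSECs. *Chd4-ECko* LSECs had 10.3, 14.3 and 17 TPM, *Brg1-ECko* LSECs had 11.3, 11.8 and 13.2 TPM, and the double mutant had 15.8, 10.9 and 14 TPM. All 9 mutant libraries were above all controls, and mutant groups overlapped each other. For each mutant alone, 8.7%, 10.9% and 20.8% of all genes lay above the controls in this way. The share for all 9 libraries together was not counted, so the pattern describes *Ptprc* and does not set it apart. The log2 fold change was 0.94 (interval 0.50 to 1.37, adjusted p = 0.0549) in *Chd4-ECko* and 0.92 (0.48 to 1.36, adjusted p = 0.0536) in double mutant LSECs, and 0.77 (0.33 to 1.21, adjusted p = 0.257) in *Brg1-ECko* LSECs. None passed either threshold. Without replicate 1 of *Chd4-ECko* the difference there was 1.12 with an adjusted p of 0.0187, and over all alternatives its adjusted p ranged from 0.0187 to 0.396. With the replicate number as a block, the adjusted p was 0.0322 in *Chd4-ECko* and 0.0327 in double mutant LSECs, still under the fold threshold. Replicate 1 of *Chd4-ECko* had the highest mitochondrial share (31.5%) and the lowest granulocyte markers (131 TPM) of the LSEC libraries. Its macrophage markers summed to 1125 TPM, against 1816 and 1715 TPM in replicates 2 and 3.

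CD45 is also carried by macrophages. In *Chd4-ECko* LSECs all 13 macrophage markers tested were higher (median 0.96), and 2 of them were called, the fractalkine receptor gene *Cx3cr1* (1.59, adjusted p = 0.00560) and the myeloid factor gene *Spi1* (1.10, adjusted p = 0.0351). The list had a median of 0.39 for *Brg1-ECko* and 0.63 for the double mutant, with none called and 6 and 7 of 13 at an unadjusted p under 0.05 in either direction. In *Brg1-ECko* 11 of 13 were higher and in the double mutant 12 of 13, *Spi1* among them (0.76 and 0.83, adjusted p = 0.302 and 0.116). Summed macrophage markers were 878 to 1202 TPM in control and 1125 to 1816 TPM in *Chd4-ECko* LSECs. They were 941 to 1478 TPM in double mutant and 873 to 1296 TPM in *Brg1-ECko* LSECs, and each mutant range overlapped that of the controls. Granulocyte, megakaryocyte and lymphoid lists had medians of -0.76, 0.17 and -0.01 in *Chd4-ECko* LSECs, with none called. Mast cell and basophil markers summed to 8.85 to 12.26 TPM in control LSECs and 12.36 to 21.5 TPM in the 9 mutant libraries, and most of the mean sum of each genotype was *Gata2*, which stem cells also express and which is a partner gene of LMO2 (mean 8.84 TPM in control, 13.5 TPM in *Chd4-ECko* and 16.8 TPM in double mutant LSECs). All 3 that entered the test were higher in *Chd4-ECko* LSECs (median 0.83, none called, 3 at an unadjusted p under 0.05), while *Prss34* was listed at 0 TPM in all 12 LSEC libraries. The part of macrophages and of mast cells in the *Ptprc* values was not tested.

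**Figure D3:**
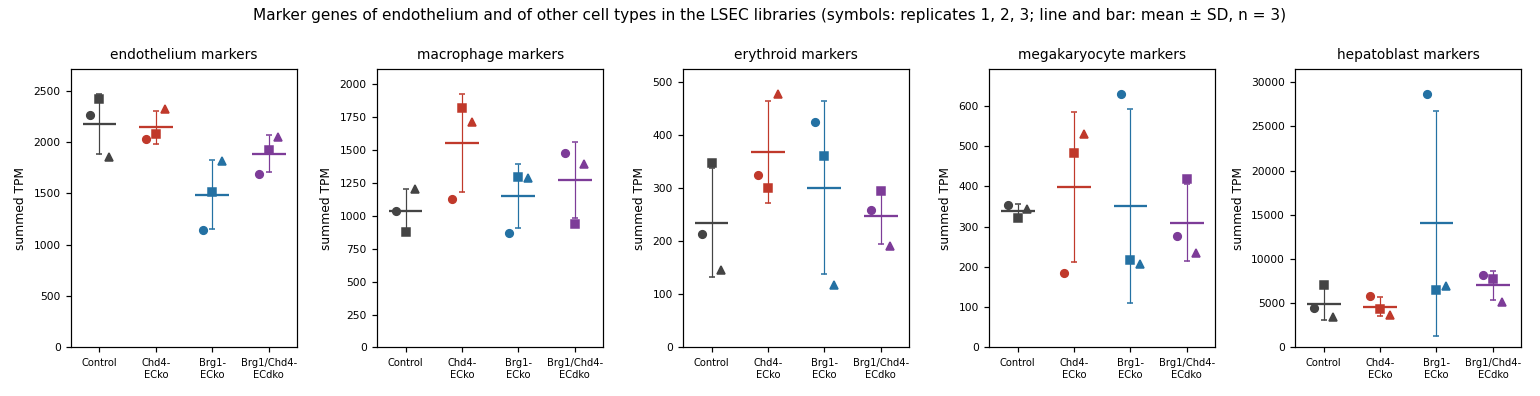
Summed TPM of marker lists in the 12 LSEC libraries by genotype, with the mean and SD of 3 libraries (SD bars are cut at 0). Macrophage markers reach 1816 TPM in *Chd4-ECko* LSECs, and hepatoblast markers stand out in replicate 1 of *Brg1-ECko* at 28657 TPM.

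*Cd34* was the gene with the opposite pattern. It was at 68.9, 86.2 and 61.2 TPM in control LSECs, and at 41.8, 54.6 and 48.2 TPM in *Chd4-ECko* LSECs. *Brg1-ECko* LSECs had 41.8, 39.0 and 48.2 TPM, and the double mutant had 30.4, 44.1 and 57.9 TPM. No mutant library reached the lowest control. For each mutant alone, 3.65%, 3.71% and 2.29% of all genes lay below the controls in this way. The share for all mutant libraries together was not counted, so the pattern describes *Cd34* and does not set it apart. Log2 fold changes were -0.57 (adjusted p = 0.417), -0.72 (adjusted p = 0.285) and -0.73 (adjusted p = 0.142), and their 95% intervals lay below 0 in each mutant. Endothelial markers were all lower in *Brg1-ECko* LSECs (13 of 13, median -0.48, none called, 8 at an unadjusted p under 0.05), but not in *Chd4-ECko* LSECs, where 6 of 13 were higher (median -0.02). In the double mutant 10 of 13 were lower (median -0.19, none called, 2 at an unadjusted p under 0.05). The part of endothelial content in the *Cd34* values was not tested.

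*Procr* did not overlap between the single mutants. The share of all genes without overlap between these groups was not counted, so this describes *Procr* and does not set it apart. *Chd4-ECko* LSECs had 10.01, 18.8 and 18.4 TPM and *Brg1-ECko* LSECs 26.2, 47.3 and 47.3 TPM, while controls lay between at 16.1 to 27.4 TPM and overlapped both. *Brg1/Chd4-ECdko* LSECs were at 15.2, 19.8 and 30.5 TPM and overlapped the controls as well. The difference from control was -0.53 on the log2 scale for *Chd4-ECko* (adjusted p = 0.985). For *Brg1-ECko* it was 0.78 (adjusted p = 0.442), and for the double mutant -0.09 (adjusted p = 0.916).

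**Figure D4:**
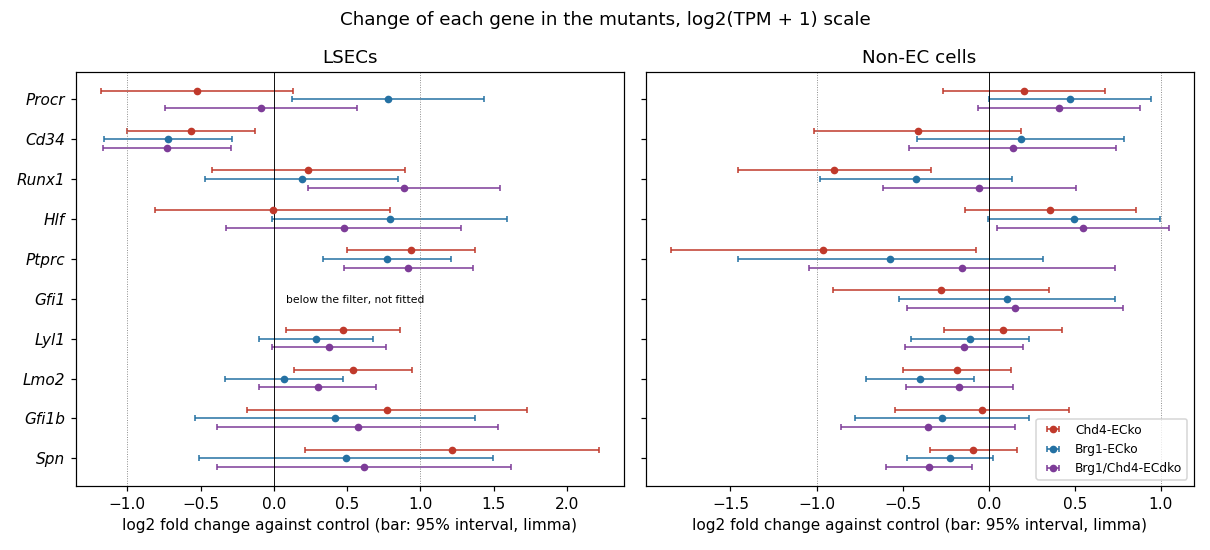
Log2 fold change of each gene against control, with its 95% interval from limma, in LSECs (left) and non-EC cells (right) for the 3 mutants. *Ptprc* lies above 0 and *Cd34* below 0 in all 3 mutants in LSECs, and no point passes both thresholds (dotted lines mark a log2 fold change of 1).

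Between mutants, none of the 9 genes was called. The share of all genes called was 0.305% between *Chd4-ECko* and *Brg1-ECko* LSECs, 0.0372% between *Brg1/Chd4-ECdko* and *Chd4-ECko* LSECs and 0.0967% between *Brg1/Chd4-ECdko* and *Brg1-ECko* LSECs. The 41 genes behind the first share became 19 without *Chd4-ECko* replicate 3. The 5 of the second fell to 0 without *Chd4-ECko* replicate 1, 2 or 3. The 13 of the third became 31 without *Brg1-ECko* replicate 1 and 4 without *Brg1/Chd4-ECdko* replicate 3. At an unadjusted p under 0.05, 2 of 9 (10.9% of all genes), 0 of 9 (10.4%) and 2 of 9 (6.1%) passed. *Procr* was lower in *Chd4-ECko* than in *Brg1-ECko* LSECs by -1.30 (interval -1.96 to -0.65, adjusted p = 0.115), the largest difference of the 9 genes between mutants. Its adjusted p was 0.0259 without replicate 1 of *Brg1-ECko*, which was the lowest of that group, and 0.0369 with the replicate number as a block, a call in both cases. *Procr* was also lower in *Brg1/Chd4-ECdko* than in *Brg1-ECko* LSECs (-0.86, adjusted p = 0.546). *Runx1* was higher in the double mutant by 0.65 against *Chd4-ECko* (interval 0.00 to 1.31, adjusted p = 0.484) and by 0.70 against *Brg1-ECko* (adjusted p = 0.761). For *Ptprc* the double mutant differed from *Chd4-ECko* by -0.02 (interval -0.46 to 0.42) and from *Brg1-ECko* by 0.15 (-0.29 to 0.58).

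The non-EC cells were examined the same way. None of the 10 genes was called for *Chd4-ECko* (0.884% of 12223 genes), for *Brg1-ECko* (1.37%) or for the double mutant (0.115%). The 108 genes behind the first share became 1014 without *Chd4-ECko* replicate 1 and 31 without its replicate 3, the 167 of *Brg1-ECko* became 318 without its replicate 2 and 80 without its replicate 1, and the 14 of the double mutant fell to 0 without either of control replicates 1 and 2 or its own replicates 1 and 2. At an unadjusted p under 0.05, 2 of 10 passed in each, where 33.9%, 28% and 11.7% of all genes did. They were *Ptprc* and *Runx1* for *Chd4-ECko*, *Lmo2* and *Procr* for *Brg1-ECko*, and *Spn* and *Hlf* for the double mutant. In the double mutant *Spn* was lower (-0.35, adjusted p = 0.205) and *Hlf* higher (0.55, adjusted p = 0.353).

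*Runx1* was at 7.92, 8.02 and 4.87 TPM in *Chd4-ECko* non-EC cells and at 16.0, 9.67 and 15.8 TPM in controls, without overlap. It was 1 of the 10 genes to lie below the controls in this way, where 11.55% of all genes did. The *Runx1* log2 fold change of -0.90 had an adjusted p of 0.0496 and missed the fold threshold. At an adjusted p under 0.05, 3.31% of all genes were lower, and 9.48% passed in either direction. *Brg1/Chd4-ECdko* non-EC cells had 10.5, 16.3 and 12.7 TPM, close to the controls. *Ptprc* was at 13.9, 6.52 and 4.48 TPM in *Chd4-ECko* and 19.5, 8.21 and 23.0 TPM in control non-EC cells, which overlapped (-0.96, adjusted p = 0.122). Neutrophil and granulocyte markers were lower there too, 9 of 9 in *Chd4-ECko* non-EC cells (median -0.71, none called, 4 at an unadjusted p under 0.05). Of other blood lists, mast cell and basophil markers were lower in 4 of 4 (median -0.76, 1 called), erythroid markers in 7 of 10 (median -0.24, 1 called) and megakaryocyte markers in 11 of 11 (median -0.27, none called). Macrophage markers went the other way, with 11 of 13 higher (median 0.49, none called, 3 at an unadjusted p under 0.05). Mesenchyme and stellate markers were higher in 7 of 7 (median 0.64, none called, 1 at an adjusted p under 0.05). Hepatoblast markers were higher, 8 of 8 in *Chd4-ECko* (median 0.82, none called, 6 at an adjusted p under 0.05) and 8 of 8 in *Brg1-ECko* non-EC cells (median 0.92, 1 called, 7 at an adjusted p under 0.05). Their sums were 17552 to 19537 TPM in control, 26850 to 36474 TPM in *Chd4-ECko* and 25495 to 38169 TPM in *Brg1-ECko* non-EC cells. In double mutant non-EC cells, hepatoblast markers were higher in 8 of 8 (median 0.48, none called, 5 at an unadjusted p under 0.05). Sums there were 22429 to 30149 TPM. Erythroid markers were lower in *Brg1-ECko* non-EC cells (10 of 10, median -0.79, 3 called), where *Lmo2* was lower (-0.40, adjusted p = 0.0942) and *Procr* higher (0.47, adjusted p = 0.177). Endothelial markers there were higher in 6 of 8 (median 0.34, none called, 3 higher and 1 lower at an unadjusted p under 0.05). They summed to 75.6 to 110 TPM, against 54.7 to 80.9 TPM in control non-EC cells. In double mutant non-EC cells, erythroid markers were lower in 10 of 10 (median -0.40, none called). The part of these cells in the values was not tested.

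The mutant effects were then compared between fractions. None of the 10 genes was called, whereas of 13775 genes 0.69% were for *Chd4-ECko*, 0.639% for *Brg1-ECko* and 0.0581% for the double mutant. The first share, 95 genes, became 1028 genes without *Chd4-ECko* replicate 1 of the non-EC cells and 15 without control replicate 2 of the LSECs. The 88 genes of *Brg1-ECko* became 184 without its replicate 3 of the LSECs and 38 without its replicate 1 of the non-EC cells. The 8 genes of the double mutant became 0 without control replicate 2 of the LSECs and 33 without *Brg1-ECko* replicate 1 of the LSECs. At an unadjusted p under 0.05, 5 of 10 (19.1% of all genes), 2 of 10 (17.9%) and 4 of 10 (7.57%) passed. *Ptprc* had the largest difference, with a *Chd4-ECko* effect 1.90 higher in LSECs than in non-EC cells (interval 0.92 to 2.87, adjusted p = 0.0535), and 1.34 and 1.08 higher for the other mutants (adjusted p = 0.152 and 0.616). For *Chd4-ECko* this difference passed in 6 of 23 alternatives, with adjusted p from 0.0026 to 0.161, among them those without control replicate 2 or *Chd4-ECko* replicate 1 of the non-EC cells. For *Spn* the differences were 1.30, 0.72 and 0.96 (adjusted p = 0.210, 0.504 and 0.695), and for *Runx1* 1.13, 0.61 and 0.94 (adjusted p = 0.177, 0.462 and 0.629). *Cd34* differed in the other direction, by -0.91 for *Brg1-ECko* (adjusted p = 0.198) and -0.87 for the double mutant (adjusted p = 0.571).

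Other genes of the program were described from lists. Of 25 tested transcription factors of the transition and of stem cells, none was called in *Chd4-ECko* (8 higher and 1 lower at an unadjusted p under 0.05) or *Brg1-ECko* LSECs (8 higher and 2 lower), and 2 rose in *Brg1/Chd4-ECdko* LSECs (12 higher and 1 lower at an unadjusted p under 0.05, and 3 higher and 1 lower at an adjusted p under 0.05). Those that rose were *Nkx2-3*, a homeobox gene of spleen and gut vessels, from 2.55 ± 0.83 to 11.5 ± 3.09 TPM (SD, n = 3; log2 fold change 1.82, adjusted p = 0.00631), and *Zbtb16*, which encodes PLZF, from 0.54 ± 0.10 to 2.45 ± 0.96 TPM (1.13, adjusted p = 0.0393). Medians of the list were 0.19, 0.15 and 0.53, against 0.01, 0.08 and 0.16 over all genes. The shares of all genes higher at an unadjusted p under 0.05 were 5.46%, 7.13% and 10.9%, in the same order of mutants. Those lower at that p were 1.03%, 2.55% and 1.23%. In double mutant LSECs, 0.491% of all genes were called higher, and 76.7% were higher by any amount. The lists that follow are read against the same shares. *Runx3*, a paralog of *Runx1*, was at 1.32 ± 0.29 TPM in *Chd4-ECko* against 0.17 ± 0.02 TPM in control LSECs (0.98, adjusted p = 0.0521). *Mecom*, which encodes the stem cell factor EVI1 and is also expressed in arterial endothelium, was at 6.49 ± 1.67 TPM in *Brg1-ECko* and 14.7 ± 2.45 TPM in control LSECs (-1.08, adjusted p = 0.0823).

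Genes for partners of the proteins were not called. Of 11 genes for partners of LMO2 and LYL1, none was called in any mutant, with medians of 0.03, 0.07 and 0.26 and 2, 0 and 3 at an unadjusted p under 0.05. *Gata2*, which is required for stem cells, was at 16.8 ± 2.53 TPM in *Brg1/Chd4-ECdko* against 8.84 ± 1.55 TPM in control LSECs (0.86, adjusted p = 0.0409, under the fold threshold). Of 9 corepressor genes of GFI1 and GFI1B, none was called, with medians of -0.02, 0.01 and 0.30 and 1, 0 and 1 at an unadjusted p under 0.05. *Rcor2*, a CoREST paralog, was at 25.4 ± 3.56 against 14.6 ± 1.41 TPM in the double mutant (0.76, adjusted p = 0.0329, under the fold threshold). None of 8 genes of the protein C pathway or related to *Cd34* was called, with medians of 0.07, -0.15 and 0.09 and 0, 2 and 1 at an unadjusted p under 0.05. *Proc*, which encodes protein C, was at 42.4 ± 32.3 TPM in *Brg1-ECko* against 18.0 ± 6.54 TPM in control LSECs (1.00, adjusted p = 0.442). Hepatoblasts also express *Proc*, and the hepatoblast values given for *Brg1-ECko* LSECs, highest in replicate 1, apply here.

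Calls among surface genes of stem cells and progenitors went in either direction. Of 19 tested, *Thy1*, a glycolipid-anchored antigen gene, rose in *Chd4-ECko* LSECs from 3.06 ± 0.31 to 13.04 ± 0.61 TPM (1.79, adjusted p = 0.00102). *Ly6a*, which encodes the stem cell antigen SCA1 that endothelium also carries, fell from 7.59 ± 1.08 to 2.14 ± 0.77 TPM (-1.48, adjusted p = 0.0296) and in *Brg1/Chd4-ECdko* LSECs to 2.09 ± 1.16 TPM (-1.54, adjusted p = 0.0186). None was called in *Brg1-ECko* LSECs, where 4 were higher and 3 lower at an unadjusted p under 0.05. At that p, 6 were higher and 1 lower in *Chd4-ECko* LSECs, and 6 higher and 1 lower in *Brg1/Chd4-ECdko* LSECs. Medians were -0.02, 0.07 and 0.05. Of 12 arterial genes of hemogenic endothelium, *Gja5*, which encodes connexin 40, fell from 18.1 ± 7.44 to 5.59 ± 1.91 TPM in *Chd4-ECko* (-1.5, adjusted p = 0.0368) and to 4.0 ± 0.94 TPM in *Brg1/Chd4-ECdko* LSECs (-1.87, adjusted p = 0.00917). None was called in *Brg1-ECko* LSECs, where 11 of 12 were lower (median -0.42, 6 at an unadjusted p under 0.05). Among them were *Gja5* at 7.53 ± 2.44 TPM (-1.12, adjusted p = 0.264) and the Notch ligand gene *Dll4* (-0.82, adjusted p = 0.169). The lower endothelial and higher hepatoblast markers given for *Brg1-ECko* LSECs apply here as well.

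Some signalling genes shared by leukocytes were called in mutant LSECs. Like the 10 genes and the other lists, this list was chosen with earlier results of these data known. Of 16 tested, 6 rose in *Chd4-ECko* LSECs (median 1.00) and 4 in *Brg1/Chd4-ECdko* LSECs (0.70), and none was called in *Brg1-ECko* LSECs (0.40, with 6 higher at an unadjusted p under 0.05). *Ptprcap*, which encodes a protein associated with CD45, was at 0.85 ± 0.25 TPM in control, 17 ± 7.51 TPM in *Chd4-ECko* (3.21, adjusted p = 0.00551) and 13.2 ± 3.31 TPM in *Brg1/Chd4-ECdko* LSECs (2.93, adjusted p = 0.0105). *Laptm5*, a lysosomal protein gene of hematopoietic cells, rose from 24.5 ± 3.64 to 61.8 ± 7.50 TPM (1.30, adjusted p = 0.00174) and to 50.8 ± 9.94 TPM (1.01, adjusted p = 0.00945). *Vav1*, a signalling gene of blood cells, rose by 1.16 and 1.01 (adjusted p = 0.00345 and 0.0104), and the phosphatase gene *Ptpn6* was called in *Chd4-ECko* (1.17, adjusted p = 0.00337) and *Rac2* in *Brg1/Chd4-ECdko* LSECs (1.13, adjusted p = 0.0126). The macrophage values given with *Ptprc* apply here as well.

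The genes whose pattern over the 12 LSEC libraries was most like that of *Runx1* were *Bicra*, *Ankrd13b* and *Dhx57*, at root mean square distances of 0.29, 0.34 and 0.35 between standardized log2(TPM + 1) values, among 13444 genes. For *Ptprc* they were *Ctsc*, *Nfam1* and *Itgal*, at 0.23, 0.24 and 0.25. The libraries share their sources, so these distances are descriptions.

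Gene positions on GRCm39 are chr16:92398354-92623037 for *Runx1*, chr5:107864523-107873902 for *Gfi1*, chr2:28499462-28511994 for *Gfi1b*, chr8:85427936-85431569 for *Lyl1*, chr2:103788331-103812355 for *Lmo2*, chr11:90227221-90281761 for *Hlf*, chr1:137990599-138103446 for *Ptprc*, chr7:126731404-126736995 for *Spn*, chr1:194621029-194647172 for *Cd34* and chr2:155593031-155597397 for *Procr*. All 10 are protein-coding genes in the annotation.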

How the data were processed

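RNA of 24 libraries of E12.5 liver was used. After trimming of repeated guanines and alignment to GRCm39 with CLC Genomics Workbench, the authors deposited gene-level TPM. These sum to the same total in each library and hold no depth. The 8 columns of group means were not used. Replicates correlated at 0.962 to 0.993 on the log2 scale, and 0 pairs held identical values.

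The 10 genes and all lists were chosen with earlier results of these data known. limma 3.58.1 (R 4.3.3) was run on log2(TPM + 1) in models of the 12 libraries of each fraction or of all 24, with a mean per group, variances moderated with a trend, and genes of at least 1 TPM in at least 3 libraries. Adjusted p-values are two-sided, by Benjamini-Hochberg over all genes tested. The study's thresholds for DEGs were used for calls (adjusted p under 0.05 and log2 fold change beyond 1 either way). *Gfi1* in LSECs was compared by an exact permutation test. All 10 genes were named, and of each list the called genes, up to 4, or else up to 2 with the smallest p. The lists of megakaryocyte, mast cell, lymphoid and stellate markers served as checks, and the mast cell and stellate lists had 0 called genes in each mutant against control LSECs. The one listed gene not matched in the table was *Ahsp*. The fit was tested on simulated data. Figures were drawn with matplotlib 3.10.9 in python 3.11.15.

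LSEC and non-EC libraries of the same genotype and number deviated together in all 12 pairs (correlations 0.124 to 0.411), and an embryo block over these pairs was added after that check. Alternatives were a pseudocount of 0.1 TPM, no filter, a filter on a mean of 5 TPM, quantile normalization, TPM without mitochondrial genes, moderation without a trend, a replicate block, no fold threshold, a separate model for each pair of groups and omission of each library.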

Additional observations from a re-analysis of the deposited data

How the results depend on the processing

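No result that passed in the main test changed sign. For *Chd4-ECko* against control LSECs, 1 gene was called in a model of the compared groups alone (*Spn*) and 1 without replicate 1 of the *Brg1-ECko* LSECs (*Spn*, an alternative chosen after seeing the data), and leaving out each compared library in turn gave 0 to 1 (*Ptprc*, without *Chd4-ECko* replicate 1). Between *Chd4-ECko* and *Brg1-ECko* LSECs, 1 gene was called with the replicate block (*Procr*, adjusted p = 0.0369), and leaving out libraries gave 0 to 2 (*Spn*, adjusted p = 0.0346, and *Procr*, adjusted p = 0.0259, both without *Brg1-ECko* replicate 1). In *Chd4-ECko* non-EC cells, 1 was called with no fold threshold (*Runx1*), and leaving out libraries gave 0 to 1 (*Runx1* without control replicate 2, *Ptprc* without *Chd4-ECko* replicate 1). For the difference of the *Chd4-ECko* effect between fractions, 1 was called with a filter on a mean of 5 TPM, 1 with quantile normalization and 1 with the replicate block (*Ptprc* each time), and leaving out libraries gave 0 to 2 (*Ptprc* and *Spn*, without *Brg1-ECko* replicate 1 of the LSECs). The causes were not tested. The replicate block changed no other count of the 10 genes, and the embryo block, which joins LSEC and non-EC libraries of the same genotype and number, changed none. The labels do not say what a replicate number marks. Same-numbered LSEC libraries correlated over 0.1 in 13 of 18 pairs, including all 3 pairs of control with *Chd4-ECko* and of *Chd4-ECko* with the double mutant, and non-EC libraries in 9 of 18. As a hint from the data and not from the design, 10 of 12 LSEC and 6 of 12 non-EC libraries correlated best with their own number. Values that were not called changed sign in 51 of 2121 comparisons with an alternative. Without mitochondrial genes, *Ptprc* lost and *Cd34* gained its call between control fractions. The depth of each library is unknown, so what it limits could not be given.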
